A study of Homo sapiens with 8 samples.

Results

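The IL-6 family of cytokines signals through receptor complexes that share the subunit gp130, and 10 genes of this pathway were followed across sublines of 2 esophageal carcinoma lines. They are the ligands IL6, LIF, IL11 and CLCF1, the receptor chains IL6R, LIFR and OSMR, and the shared receptor IL6ST, which encodes gp130. The others are the transcription factor STAT3 and its feedback inhibitor SOCS3. Members were taken by gene symbol, through probe sets whose platform annotation gives 1 symbol. Of the 19775 genes that the arrays measure in this way, 9 were members, covered by 30 probe sets, and CLCF1 was not analysed here. For each gene the probe set of highest mean over all arrays was used, and the others were checked against it. IL6 lay below the filter on dim probe sets, so 8 members were tested.

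KYSE30 and KYSE180 are established human esophageal squamous cell carcinoma lines. Both were put through 4 rounds of transwell selection, in which cells migrate through a porous membrane, and RNA was taken 2 passages after harvest. The sublines 180D and 30D passed through the membrane and are labelled as the more motile ones, whereas 180U and 30U did not pass. Each of the 4 groups has 2 arrays. Each D subline shares 1 of 4 parental populations with a U subline, and replicates of a group thus come from different parental populations. No group holds non-malignant cells, and motility itself is known only from the labels.

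In this pathway a ligand brings its own receptor chain together with gp130. LIF uses LIFR, oncostatin M uses OSMR or LIFR, and IL-6 and IL-11 use chains that carry no signalling domain of their own. Receptor-bound JAK kinases then phosphorylate STAT3, which enters the nucleus, and SOCS3 is one of its targets and blocks gp130. In epithelial cells the pathway is known for acute phase, survival and wound responses.

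All levels are log2 values made with RMA, and changes are log2 differences with their SE. A level says nothing about another gene's level, because probe sets differ in brightness. Array medians lay between 5.02 and 5.04. One measure of RNA quality, the 3′ minus the 5′ probe set of ACTB, was 1.92 on the array of 180D replicate 1. It was 1.36 to 1.42 on the other KYSE180 arrays and 1.06 to 1.27 on the KYSE30 arrays. Every KYSE180 array thus lay above every KYSE30 array, and the part of this in the line differences was not tested. The same measure for GAPDH was 0.10 to 0.15 on all arrays. Of 9 squamous epithelium markers 6 were measured, and all of them passed the filter of 4.46, but the basal keratin KRT14 read 13.34 to 13.64 in KYSE180 and only 3.45 to 4.27 in KYSE30, where KRT5, its partner, was also close to the filter with 4.48 to 4.85. Of the markers of other cell types, 4 of 7 measured for fibroblasts (COL1A1, PDGFRB, THY1 and DCN), 2 of 5 for immune cells (CD79A and CD3E) and 2 of 4 for endothelial cells (PECAM1 and VWF) passed the filter, while PTPRC, CD14, LYZ, LUM, COL3A1, COL1A2, KDR and CDH5 lay below it. The summed level of 7 fibroblast markers was 8.53 to 8.72 in 180D, 8.24 to 8.27 in 180U, 7.92 to 8.0 in 30D and 8.10 to 8.12 in 30U, and its part in the results below was not tested. The sum was taken on unlogged values, so COL1A1, the brightest, weighed most. COL1A1 read 7.99 and 7.68 in 180D, 7.32 and 7.19 in 180U, 6.56 and 6.71 in 30D, and 7.05 and 6.99 in 30U. For PDGFRB, THY1 and DCN the D and U arrays overlapped in both lines.

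The comparison of KYSE180 with KYSE30 gave the most calls among the members. Of them LIF, LIFR, OSMR, IL6ST, STAT3 and SOCS3 were lower in KYSE180 and none was higher, 6 of 8 tested members, against 71.4% of all tested genes in either direction, 32.7% lower and 38.7% higher. The share called is thus near that of all genes, and all 6 calls lay on the same side, although IL6R and IL11 were called higher in KYSE180 in some alternatives, given with their values. In these bulk cultures fewer cells that express a gene and less of its RNA per cell cannot be told apart. The median difference of the 8 members was -0.76, beside 0.05 over all 14180 tested genes. The same 6 members had KYSE180 and KYSE30 arrays that did not overlap, against 63.1% of all genes. All 6 kept their call in each of the 17 alternative analyses.

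LIF, the leukemia inhibitory factor, read 5.12 and 5.18 in 180D and 5.30 and 5.47 in 180U, against 7.04 and 6.98 in 30D and 6.65 and 6.32 in 30U. The 4 groups stood apart, with 30D highest and 180D lowest. LIF was 2.79-fold lower in KYSE180 (-1.48 ± 0.08, limma adjusted p = 1.32e-06), and it has a single probe set. IL11 read 5.24 to 5.50 on the KYSE180 arrays and 5.15 to 5.55 on the KYSE30 arrays, and neighbouring groups overlapped throughout. Its difference between the lines was 0.03 ± 0.07, with a 95% interval from -0.13 to 0.19, and with the mean of its probe sets it was 0.12 and passed (adjusted p = 0.0497). That mean takes in a second IL11 probe set with a level of 3.65, below the filter. IL6 read 3.70 to 3.84 in KYSE180 and 3.68 to 4.0 in KYSE30, all below the filter, and without that filter its difference was -0.04 ± 0.08 (limma adjusted p = 0.693).

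Among the receptors, OSMR, the oncostatin M receptor, had the smallest p of the members in this comparison. Its levels were 7.77 and 7.80 in 180D and 7.75 and 7.90 in 180U, against 9.33 and 9.38 in 30D and 9.17 and 9.19 in 30U. The D and U arrays of KYSE180 overlapped, and every KYSE180 array lay well below every KYSE30 array. OSMR was 2.75-fold lower in KYSE180 (-1.46 ± 0.05, limma adjusted p = 7.23e-08). IL6ST read 10.04 and 10.00 in 180D and 10.02 and 9.72 in 180U, against 11.16 and 11.17 in 30D and 11.00 and 10.93 in 30U. The common receptor was thus 2.18-fold lower in KYSE180 (-1.12 ± 0.07, adjusted p = 2.43e-06). LIFR was 1.37-fold lower (-0.45 ± 0.04, adjusted p = 1.67e-05). IL6R, the IL-6 receptor alpha chain, averaged 7.58 in KYSE180 and 7.48 in KYSE30, and its difference of 0.10 ± 0.04 did not pass (adjusted p = 0.054). It passed with arrays centred on their medians (adjusted p = 0.0438), with a filter at the 60th percentile (adjusted p = 0.0354) and without 180D replicate 2 (0.13, adjusted p = 0.0208).

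STAT3 levels were 9.94 and 9.82 in 180D and 9.56 and 9.63 in 180U, against 10.42 and 10.47 in 30D and 10.36 and 10.39 in 30U. The 4 groups did not overlap, and STAT3 was 1.59-fold lower in KYSE180 (-0.67 ± 0.04, adjusted p = 4e-06). SOCS3 levels were 6.41 and 6.47 in 180D and 6.27 and 6.09 in 180U, against 7.30 and 7.37 in 30D and 6.97 and 7.02 in 30U. Their group means followed the same order as those of STAT3 and IL6ST, from 30D at the top to 180U at the bottom. SOCS3 was 1.81-fold lower in KYSE180 (-0.86 ± 0.05, adjusted p = 2.35e-06).

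**Figure D1:**
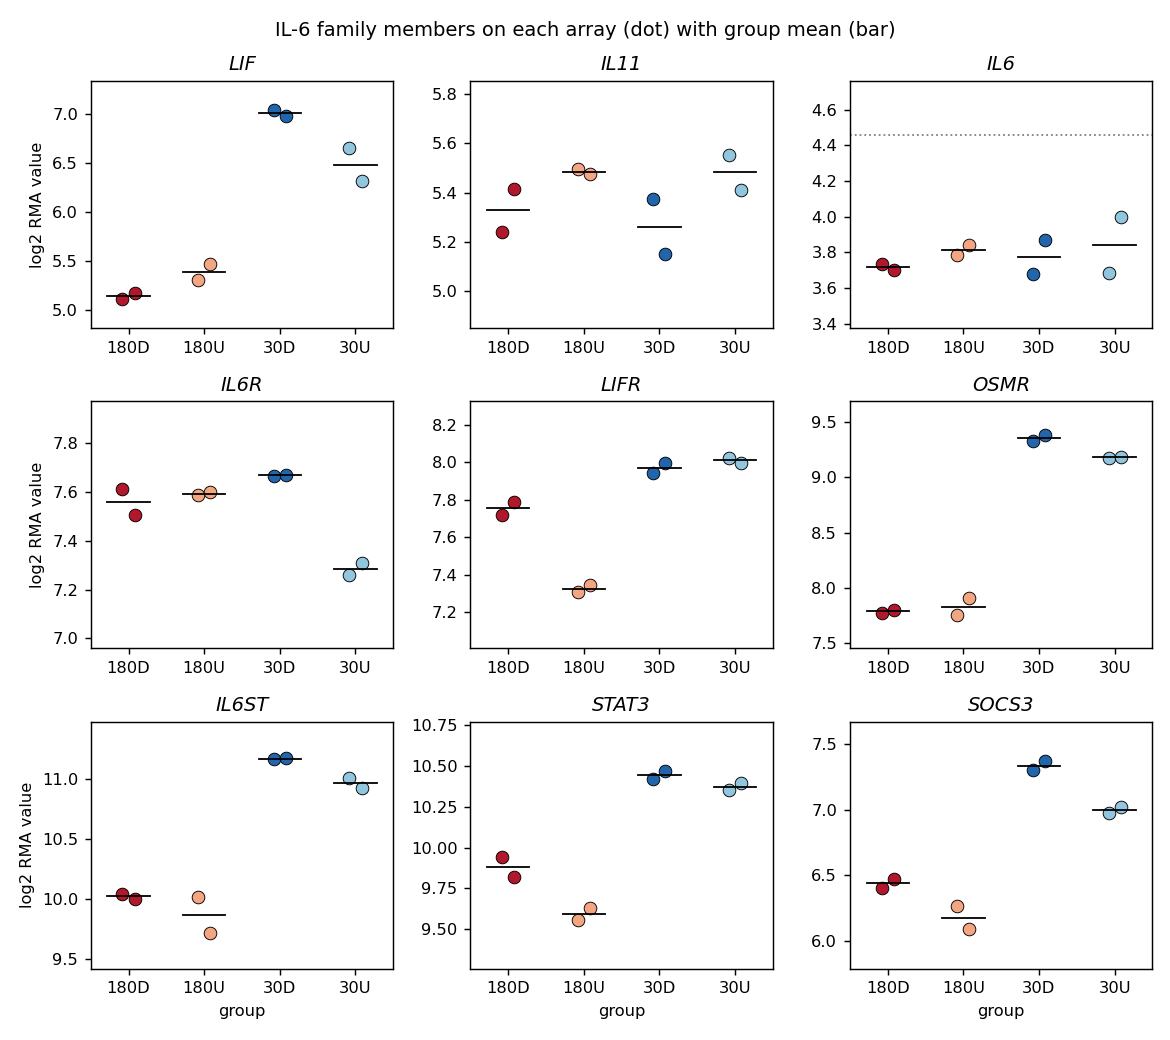
Log2 RMA values of 9 IL-6 family genes on each of the 8 arrays (dots, 2 per group) with the group mean (bar), for 180D, 180U, 30D and 30U from left to right. The vertical scale differs between panels, and the dotted line in the IL6 panel is the filter value of 4.46. LIF, LIFR, OSMR, IL6ST, STAT3 and SOCS3 lie lower on every KYSE180 array than on any KYSE30 array.

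The other probe sets of the members were fitted together with all 26781 probe sets past the filter. Of 22 member probe sets past it, 15 were lower in KYSE180 and 1 was higher. Several of them belong to the same gene. Among all tested genes 71.4% were called in either direction, 32.7% lower and 38.7% higher. The share over all probe sets was not counted, so the count of member probe sets has no matching background. All 4 probe sets of IL6ST (-1.12 to -0.30) and all 3 of STAT3 (-0.67 to -0.51) were lower. OSMR was divided. Its dimmest probe set was lower by nearly the same amount as the one used (-1.39 ± 0.07, adjusted p = 1.55e-06), while the other, intermediate in level, was higher in KYSE180 (0.81 ± 0.05, adjusted p = 5.72e-06), with 7.88 and 7.83 in 180D and 7.80 and 7.97 in 180U against 7.12 and 7.01 in 30D and 7.05 and 7.06 in 30U. The direction for OSMR therefore holds for 2 of its 3 probe sets. For LIFR 3 of 4 probe sets were lower and the dimmest of them did not pass (0.01 ± 0.06). For SOCS3 2 of 4 were lower, while its second brightest (0.01 ± 0.05) and its dimmest probe set (0.24 ± 0.10, adjusted p = 0.0567) did not pass.

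**Figure D2:**
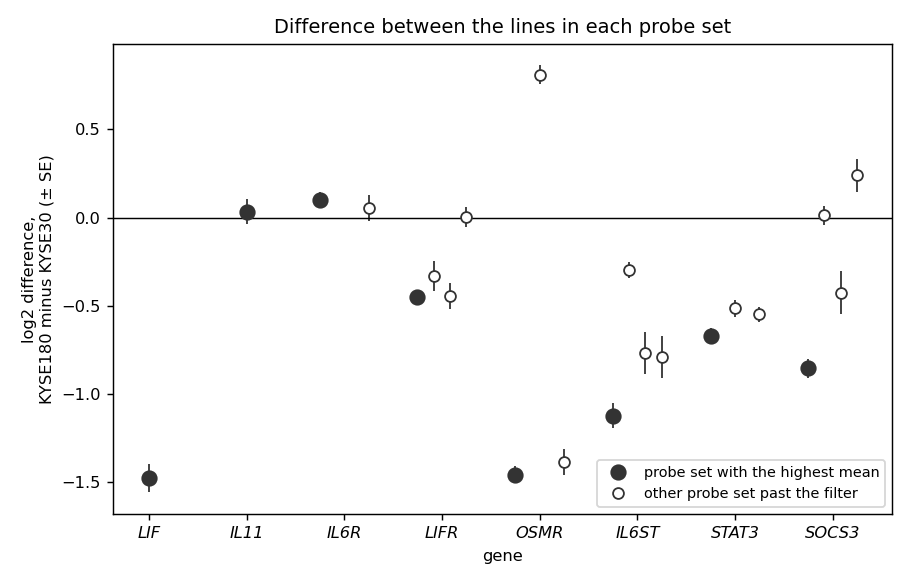
Log2 difference between the lines, KYSE180 minus KYSE30, in each probe set of the tested members that passed the filter (filled: the probe set with the highest mean; open: the others; bars: SE). Probe sets of IL6ST and STAT3 all lie below 0, whereas those of OSMR lie at -1.46, 0.81 and -1.39.

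Within each line few members differed between the cells that had passed the membrane and those that had not. In 180D only LIFR rose past the threshold, 1 of 8 tested members, against 3.75% of all genes in either direction, 2.55% higher and 1.21% lower. In 30D the ligand LIF, the receptor chain IL6R and the inhibitor SOCS3 rose and no member fell, 3 of 8, against 16.5% of all genes, 8.42% higher and 8.12% lower. With arrays centred on their medians the 30D calls over all genes were 1066 higher and 1311 lower, against 1194 and 1152 without centring, and those in 180D were 269 higher and 236 lower, against 361 and 171. All of these changes, with all arrays in the fit, were under 1.5-fold. The members' median change was 0.06 in 180D, beside 0.02 over all genes, and 0.19 in 30D, beside 0.01.

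LIFR, the signalling receptor chain for LIF, read 7.72 and 7.79 in 180D against 7.31 and 7.34 in 180U, and 7.945 and 7.997 in 30D against 8.026 and 7.999 in 30U. Both 180D arrays lay above both 180U arrays, while in KYSE30 the 2 groups lay within 0.1 of each other. LIFR rose 1.35-fold in 180D (0.43 ± 0.05, limma adjusted p = 0.00714), and its change in 30D was -0.04 ± 0.05 (adjusted p = 0.659). The other probe sets past the filter gave changes of 0.44, 0.49 and 0.45 in 180D, of which the last, from the dimmest probe set, passed in the fit of all probe sets (adjusted p = 0.0422). The call in 180D was kept without each array in turn, also without 180D replicate 1 (0.46, adjusted p = 0.0273). A block for parental population (adjusted p = 0.05004) and a fit of the KYSE180 arrays alone (adjusted p = 0.0637) left it just short of the threshold.

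Promoter windows in RefSeq, of build GRCh38.p14, were found for 8 of the 10 members, 11 windows in all. They were searched for the STAT motif TTCNNNGAA and the AP-1 motif TGANTCA, which both read the same on either strand and no window held both. The STAT motif was present in 2 of the 11 windows, both of LIFR, against 7.66% of all 35116 windows, and the AP-1 motif in 3, those of IL6R, OSMR and IL11, against 7.71%. The sequences below are the 250 bases before the annotated start in the 2 of 3 LIFR windows with a match, since LIFR is the member that rose in 180D, and in the first of the 2 SOCS3 windows, SOCS3 being known as a STAT3 target. Capitals mark the STAT motif, which is in neither SOCS3 window. Each window is 300 bases long, and sites outside the windows were not looked for. A match describes letters in a window and no binding was measured.
LIFR, first window, chr5:38595406-38595655, minus strand: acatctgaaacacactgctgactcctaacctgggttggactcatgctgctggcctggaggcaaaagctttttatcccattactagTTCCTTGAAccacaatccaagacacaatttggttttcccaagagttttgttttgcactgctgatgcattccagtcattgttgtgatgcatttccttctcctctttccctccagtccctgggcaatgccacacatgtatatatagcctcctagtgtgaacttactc
LIFR, second window, chr5:38557468-38557717, minus strand: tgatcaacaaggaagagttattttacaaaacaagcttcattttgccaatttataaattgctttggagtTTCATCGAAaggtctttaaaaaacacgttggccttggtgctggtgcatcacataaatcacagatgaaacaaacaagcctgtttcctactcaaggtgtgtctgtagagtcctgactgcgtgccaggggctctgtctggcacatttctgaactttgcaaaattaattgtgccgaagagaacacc
SOCS3, first window, chr17:78360926-78361175, minus strand: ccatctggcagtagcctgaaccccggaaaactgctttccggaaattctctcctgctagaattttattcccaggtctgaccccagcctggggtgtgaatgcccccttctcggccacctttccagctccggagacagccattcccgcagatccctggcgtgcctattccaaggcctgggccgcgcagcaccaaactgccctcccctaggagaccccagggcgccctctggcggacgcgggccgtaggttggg

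LIF changed in KYSE30 by 0.53 ± 0.11 (limma adjusted p = 0.0197), or 1.44-fold, and both 30D arrays lay above both 30U arrays. In 180D it lay lower, with a change of -0.24 ± 0.11 that did not pass (adjusted p = 0.3). The size in KYSE30 depended on the 30U arrays, with 0.70 without 30U replicate 1 (adjusted p = 0.0123) and 0.36 without 30U replicate 2 (adjusted p = 0.0769). The call was also lost without 30D replicate 1 (adjusted p = 0.102), without 30D replicate 2 (adjusted p = 0.0767) and with only the KYSE30 arrays (adjusted p = 0.0509). IL11 lay lower in D in all 4 parental populations, by 0.08 to 0.26 on the log2 scale, but passed in neither line (-0.16 ± 0.10 in 180D, adjusted p = 0.426, and -0.22 ± 0.10 in 30D, adjusted p = 0.171). That direction holds for the probe set used. Its other probe set, below the filter, gave -0.22 and 0.28 in KYSE30 and -0.25 and 0.15 in KYSE180.

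IL6R read 7.61 and 7.51 in 180D against 7.58 and 7.60 in 180U, and 7.67 and 7.67 in 30D against 7.26 and 7.31 in 30U. The KYSE180 groups overlapped, and the 30U arrays lay below all others. IL6R rose 1.31-fold in 30D (0.39 ± 0.06, limma adjusted p = 0.00527), and the call was kept in all 17 alternatives (adjusted p up to 0.0467). Its second probe set past the filter gave a like change in 30D (0.45 ± 0.10, adjusted p = 0.0357), and in 180D the change was -0.03 ± 0.06 (adjusted p = 0.792). The receptor OSMR changed by -0.04 ± 0.06 in 180D and by 0.17 ± 0.06 in 30D, and IL6ST by 0.15 ± 0.10 and 0.20 ± 0.10, none past the threshold (adjusted p from 0.113 to 0.792). With the KYSE30 arrays alone IL6ST passed in 30D (adjusted p = 0.0491).

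SOCS3 rose 1.26-fold in 30D (0.34 ± 0.07, limma adjusted p = 0.0199), and its change in 180D was 0.26 ± 0.07 (adjusted p = 0.109). Within the parental populations SOCS3 was higher in the D than in the U subline by 0.20 and 0.32 in KYSE180 and by 0.33 and 0.35 in KYSE30. The call in 30D was lost without any 1 of the 4 KYSE30 arrays (adjusted p 0.0737 to 0.119) and with the mean of all its probe sets (0.14, adjusted p = 0.216). The second brightest of them gave -0.19 ± 0.08 in 30D, below 0 (adjusted p = 0.17). Within the populations this probe set gave -0.20 and -0.17 in KYSE30 and 0.02 and -0.12 in KYSE180. The third brightest gave 0.29 and 0.20 in KYSE30 and -0.18 and 0.63 in KYSE180, and the dimmest lay above 0 in each population. STAT3 was likewise higher in D in each population, by 0.27 and 0.31 in KYSE180 and by 0.06 and 0.08 in KYSE30. Its change was 0.29 ± 0.06 in 180D, just short of the threshold (adjusted p = 0.0549), and 0.07 ± 0.06 in 30D (adjusted p = 0.493). In 180D it passed with a filter at the 60th percentile (adjusted p = 0.0284) and with an intensity trend in the prior (adjusted p = 0.00375). With the mean of all its probe sets the STAT3 change in 180D was 0.14 and did not pass (limma adjusted p = 0.263). Its other probe sets past the filter gave 0.19 and 0.17 in 180D (limma adjusted p = 0.208 and 0.209). All 8 tested members, 6 higher and 2 lower, had 30D arrays that did not overlap the 30U arrays, against 64.7% of all genes, and 5 of 8 showed the same for 180D and 180U, against 44.6%.

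**Figure D3:**
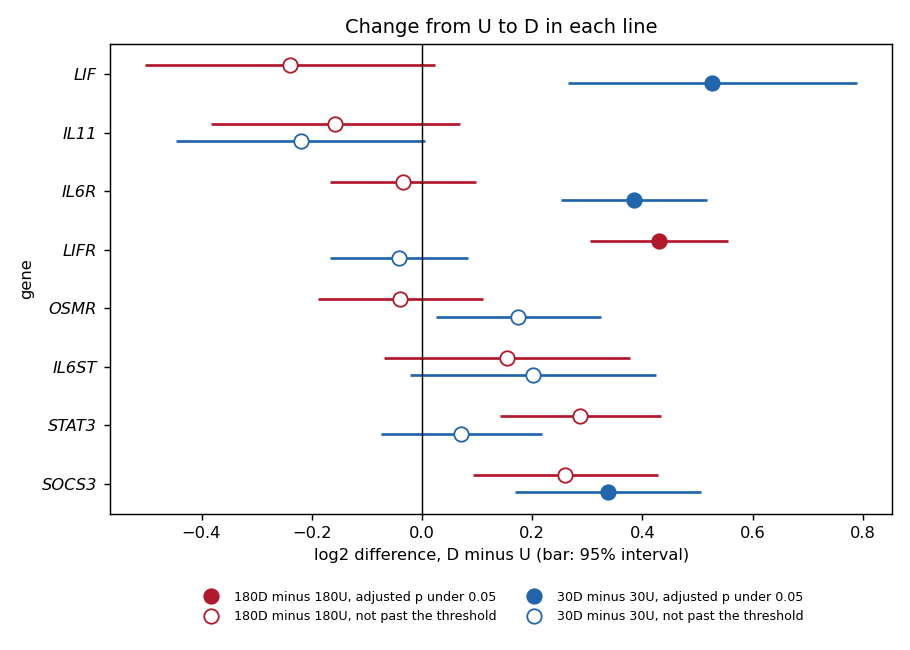
Log2 change from U to D of the 8 tested members in KYSE180 and KYSE30 with 95% intervals, filled where the adjusted p is under 0.05. LIFR is filled in KYSE180 at 0.43, and LIF, IL6R and SOCS3 in KYSE30 at 0.53, 0.39 and 0.34.

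The change that went with passage was then set against itself across lines in 1 test, which called 3 of 8 members, against 12.2% of all genes, 6.94% higher and 5.21% lower. The difference, KYSE180 minus KYSE30, was -0.77 ± 0.16 for LIF (limma adjusted p = 0.0233), 0.47 ± 0.08 for LIFR (adjusted p = 0.00978) and -0.42 ± 0.08 for IL6R (adjusted p = 0.0179). The D minus U changes of LIF and its receptor chain LIFR thus differed in opposite directions, while the levels of both genes were lower in KYSE180. The other LIFR probe sets past the filter gave differences of 0.77, 0.56 and 0.46 (adjusted p = 0.0385, 0.0592 and 0.0478), and the second of IL6R gave -0.44 (adjusted p = 0.12). For SOCS3 the difference was -0.08 ± 0.10, with a 95% interval from -0.32 to 0.16, and for STAT3 it was 0.22 ± 0.09 (adjusted p = 0.161). These calls rest on few arrays. LIFR lost its call without 30D replicate 1 (adjusted p = 0.0512). LIF lost it when any 1 array of 180D or 30D, or 180U replicate 2, was left out (adjusted p up to 0.0799). IL6R lost it without 180U replicate 2 or any 1 of the 4 KYSE30 arrays (adjusted p up to 0.0757) and under the block for parental population (adjusted p = 0.05005).

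**Figure D4:**
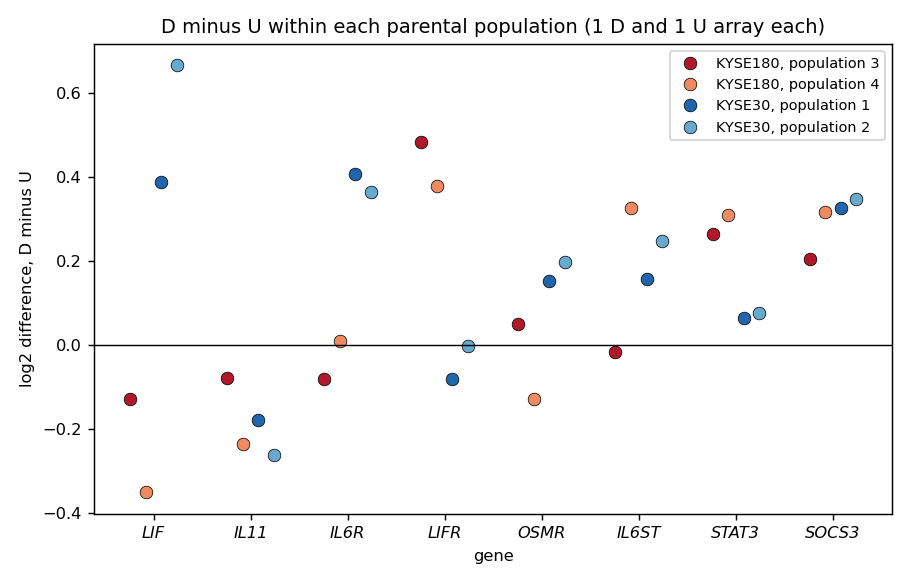
Log2 difference between the D and the U array of each parental population for the 8 tested members, with 2 populations of KYSE180 and 2 of KYSE30. The probe set with the highest mean is shown for each gene. In it SOCS3 and STAT3 lie above 0 in all 4 populations, and LIF lies above 0 in both KYSE30 populations and below 0 in both KYSE180 populations.

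The genes whose 8 array values, after subtracting each line's mean, followed a member most closely were IP6K1, PGM2 and LOC100127955 for LIF (Pearson r = 0.987, 0.981 and 0.979). For LIFR they were SNX7, PADI3 and HMCN1 (0.990, 0.986 and 0.985), and for IL6R SETD7, WDR74 and METRNL (0.998, 0.994 and 0.992). These are descriptions over the same 8 arrays, picked from all tested genes.

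Beyond the members, 71 further genes of the pathway were listed, and 54 of them were tested. In 180D 5 passed as higher and none as lower, 9.26% of those tested beside 3.75% of all genes, and in 30D 8 rose and 6 fell, 25.9% beside 16.5%. The calls in 180D include FOS, whose group means in 180D and 180U both lay below the filter. Between the lines 21 were higher and 15 lower in KYSE180, 66.7% beside 71.4%.

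Of 3 other receptor chains tested, IL27RA, a receptor of IL-27 that pairs with gp130, rose in both lines. That is 1 of 3 in each line, beside 3.75% of all genes called in 180D and 16.5% in 30D. IL27RA values were as follows. It read 8.25 and 8.29 in 180D against 7.91 and 7.91 in 180U, and 6.68 and 6.66 in 30D against 6.30 and 6.37 in 30U. The change was 0.36 ± 0.05 in 180D (limma adjusted p = 0.014) and 0.33 ± 0.05 in 30D (adjusted p = 0.00683). IL27RA was 1.58 higher in KYSE180 on the log2 scale (adjusted p = 1.71e-08). The call in 180D was lost without 180D replicate 1, 180U replicate 1 or 180U replicate 2, with the block and in 2 other alternatives (adjusted p up to 0.19), and that in 30D without 30D replicate 1 or 30U replicate 1 (adjusted p up to 0.0595). The other 2 chains, IL11RA and CNTFR, and the 3 other ligands tested passed in no comparison.

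Of 10 kinases, adaptors and other STATs, none passed in 180D, beside 3.75% of all genes, and 1 passed in 30D, beside 16.5%. The call in 30D was YES1, a SRC family kinase, which fell by 0.33 on the log2 scale (limma adjusted p = 0.00748). It was lost without 30D replicate 1 or 30U replicate 1. Between the lines 6 were higher and 2 lower in KYSE180, 8 of 10, beside 71.4% of all genes. JAK1, the main kinase bound to gp130, was lower (-0.97 ± 0.05, adjusted p = 6.62e-07), whereas TYK2 (0.54 ± 0.05), STAT5B (0.86 ± 0.08) and the adaptor GAB1 (0.63 ± 0.06) were higher. Among 8 negative regulators and sheddases 1 rose in 180D, beside 3.75% of all genes called, and 1 rose and 1 fell in 30D, beside 16.5%. SOCS2, an inhibitor of cytokine receptors, rose in both lines. It read 9.65 and 9.71 in 180D against 9.09 and 8.99 in 180U, and 8.70 and 8.65 in 30D against 8.39 and 8.37 in 30U. Its change was 0.65 ± 0.06 in 180D (adjusted p = 0.00196) and 0.30 ± 0.06 in 30D (adjusted p = 0.0147, a call lost without any 1 of the KYSE30 arrays and with the mean of its probe sets, up to 0.0987). The difference between these changes was 0.35 ± 0.08 (adjusted p = 0.0363), kept in 5 of 16 alternatives. ADAM17, the protease that sheds the IL-6 receptor, fell by 0.22 on the log2 scale in 30D (adjusted p = 0.0259), a call lost without any 1 of the KYSE30 arrays and in 3 other alternatives (adjusted p up to 0.157). Between the lines ADAM17 (0.85 ± 0.04) and SOCS2 (0.83 ± 0.04) were higher in KYSE180, and the phosphatase PTPN2 (-0.66 ± 0.04) and the protease ADAM10 (-0.66 ± 0.04) lower.

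Of 30 genes known as STAT3 or acute phase targets, 3 passed as higher in 180D and none as lower, beside 3.75% of all genes called, while 6 rose and 4 fell in 30D, beside 16.5%. The list's median change was -0.01 in 180D and 0.05 in 30D, beside 0.02 and 0.01 over all genes. IRF9, also a subunit of the interferon-activated factor ISGF3, rose in both lines (0.54 ± 0.05 in 180D and 0.91 ± 0.05 in 30D). MYC, a growth-promoting transcription factor, rose in 30D (1.02 ± 0.06, limma adjusted p = 0.00017), as did CD274, which encodes PD-L1 (0.85 ± 0.10, adjusted p = 0.0023), and the cyclin CCND1 (0.40 ± 0.05). Among the alternatives the rise of CD274 ranged from 0.39 to 1.01. CEBPB, a transcription factor of the acute phase response, rose in 180D (0.28 ± 0.05, adjusted p = 0.0347), but in only 4 of 17 alternatives. FOS was called in 180D as well, but its group means of 4.42 in 180D and 3.90 in 180U both lay below the filter, and no rise is read from them. The 3 calls in 180D include FOS.

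The direct test of the difference between the changes called 2 of the 30 targets higher and 5 lower in KYSE180, beside 12.2% of all genes. FOS was called as higher (0.74 ± 0.09, limma adjusted p = 0.00315) and is in that count, but both its KYSE180 group means lay below the filter. Its KYSE30 group means were 5.04 in 30D and 5.27 in 30U, and no difference between the lines is read from these values. The change of MYC (-1.03 ± 0.09, adjusted p = 0.00097), CCND1 (-0.46 ± 0.07, adjusted p = 0.00888) and CD274 (-0.76 ± 0.14, adjusted p = 0.0153) was lower in KYSE180 than in KYSE30. The CD274 group means of 4.69 in 180D and 4.60 in 180U lay just above the filter, where changes are understated. In KYSE30 they were 5.79 in 30D and 4.94 in 30U. The part of the low KYSE180 level in the CD274 call was not tested. CD274 lost this call without 180U replicate 2, without either 30D array and with the mean of its probe sets (adjusted p up to 0.113). Between the lines 12 targets were higher and 10 lower in KYSE180, 22 of 30, a share near the 71.4% of all genes. TIMP1, an inhibitor of matrix metalloproteinases, was lower by the most among those named (-3.23 ± 0.04, adjusted p = 1.5e-09), with IRF1 (-1.95 ± 0.06) and the survival gene MCL1 (-0.91 ± 0.04) also lower and MYC higher (1.54 ± 0.05).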

How the data were processed

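Expression was measured on 8 Affymetrix arrays, 2 per group. The authors deposited log2 values from RMA (background correction, normalization across arrays, 1 summary per probe set), per the submitters' processing notes, which name no version. RMA compresses low signals, and changes of dim genes are understated. Of 54675 probe sets, 41091 carried 1 gene symbol, updated by Entrez ID through RefSeq (GRCh38.p14). Each gene was represented by its brightest probe set, and genes below the 40th percentile of all probe sets (4.46) were left out. This filter is no detection call.

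Tests used limma 3.58.1 in R 4.3.3 (lmFit and eBayes on 4 group means, two-sided) with Benjamini-Hochberg adjustment over 14180 genes and a threshold of 0.05. The number of arrays limits the precision. The labels pair the sublines by parental population, and in KYSE180 the paired sublines carry different replicate numbers. Deviations of paired arrays from their group means correlated at 0.02 in KYSE180 and -0.02 in KYSE30. Alternatives changed the filter, the probe set rule, the prior, the scaling, the block, the arrays in the fit and, for the lines, the design. The fits were tested on simulated data. Members and lists were chosen with earlier results of these data known. The text names all members, and up to 4 genes of smallest p per further list and comparison among those past the threshold, and the 3 genes most like each member whose change differed between the lines.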

Additional observations from a re-analysis of the deposited data

Results flagged for a closer look

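For 3 members the D minus U change was not alike in both lines by the direct test. LIF differed by -0.77 on the log2 scale (KYSE180 minus KYSE30, limma adjusted p = 0.0233), with changes of -0.24 in 180D and 0.53 in 30D. LIFR differed by 0.47 (limma adjusted p = 0.00978), with changes of 0.43 in 180D and -0.04 in 30D. IL6R differed by -0.42 (limma adjusted p = 0.0179), with changes of -0.03 in 180D and 0.39 in 30D. What lies behind these differences was not tested.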

How the results depend on the processing

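The 6 members lower in KYSE180 kept direction and call in all 17 alternatives. Over the 32 tests of single members, 490 of 532 alternative values kept direction and side of the threshold, and 12 turned sign, all of them among uncalled values near 0. Of those, with the mean of all probe sets, the difference of the changes was 0.10 for IL6ST and -0.009 for IL11. Leaving out 1 array turned the 180D change of IL6R (range -0.087 to 0.018) and OSMR (-0.114 to 0.036), the difference of the changes of IL6ST (-0.20 to 0.10), IL11 (-0.049 to 0.18) and SOCS3 (-0.17 to 0.012), and the line difference of IL11 (-0.022 to 0.09). Of 31 tests of further pathway genes none turned sign. With the parental population as a replicate block, no member was called in 180D (0), and 230 genes in all were, against 532, while the direct test of the difference called 1011 genes, against 1723. The block changed no other call of a member than those of LIFR in 180D and IL6R in the direct test. With only the arrays of the line, 0 members and 195 genes were called in 180D. Without a filter 311 genes were called in 180D and 1142 by the direct test, and with an intensity trend 1069 and 2700. In 180D 2 members were called with the trend and also with a filter at the 60th percentile. With arrays centred on their medians the split of calls was 269 higher and 236 lower in 180D, against 361 and 171, and 1066 higher and 1311 lower in 30D, against 1194 and 1152, so that the balance in 30D turned; the members' calls within each line stayed the same. Without 1 array, between 834 and 2553 genes and 1 to 3 members were called in 30D, 209 to 502 genes and 1 member in 180D, and 727 to 1702 genes and 0 to 3 members by the direct test. The cause of these shifts was not tested. Arrays carry no count depth, and dim probe sets limit what can be said of IL6.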
